A study of Homo sapiens with 8 samples.

Results

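The genes described here are 44 components of WNT signalling, covering ligands, receptors, secreted antagonists and intracellular effectors. They were chosen by symbol, with earlier results of these data known. All 44 were found among the 23228 genes listed in each of 8 RNA-seq libraries of ES2 cells, a human ovarian cancer line. Knockout cells lacking KDM1A and control ES2 cells were each given LY500307 at 5 µM or vehicle, and RNA was taken after 48 h. The groups were knockout cells with LY500307, control cells with LY500307, knockout cells with vehicle and control cells with vehicle, with 2 libraries in each. LY500307 is an agonist of oestrogen receptor beta, and KDM1A is a histone demethylase of corepressor complexes. Neither the edited site nor the number of clones behind the knockout cells is known here, so a property of a clone and the loss of KDM1A cannot be told apart. The labels speak of runs in duplicate and do not name separate cultures, so the p-values cover the spread between these libraries, which may be technical.

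WNT proteins are secreted lipid-modified ligands that bind frizzled receptors together with the co-receptors LRP5 and LRP6. In the canonical branch this binding stops the destruction complex, which holds APC, AXIN and GSK3B, from degrading beta-catenin, and beta-catenin then enters the nucleus and acts with TCF/LEF factors. Other ligands, such as WNT5A and WNT5B, are best known for signalling through frizzled, ROR and RYK receptors without beta-catenin. DKK and SFRP proteins are secreted antagonists, and R-spondins with their LGR receptors keep frizzled proteins at the cell surface by restraining the ubiquitin ligases ZNRF3 and RNF43.

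Library totals were between 24348937 and 30131097 gene counts. KDM1A itself had 71.9 and 71.5 counts per 1000000 scaled counts (CPM) in knockout libraries with LY500307, and 238.3 and 241.0 CPM in control libraries with LY500307. With vehicle it had 75.6 and 77.8 CPM in knockout libraries and 219.98 and 219.3 CPM in control libraries, so the transcript was lowered and not absent. Of the oestrogen receptors, ESR2 had 12 counts in all in knockout cells and 11 in control cells with LY500307, and 10 in knockout cells and 8 in control cells with vehicle. ESR1 had 15, 22, 16 and 23 counts in the same groups. The epithelial and mesenchymal genes KRT7, KRT18 and VIM were abundant in every library, MUC16 had 1 count in all, and PAX8 and WT1, both used as ovarian carcinoma markers, lay between 1.12 and 7.23 CPM. Of the 11 ovarian and epithelial markers 9 were tested, and in knockout against control cells 3 were called higher and 2 lower with LY500307, and 4 higher and 3 lower with vehicle. With LY500307 the log2 fold changes were 2.11 for PAX8, 1.93 for WT1 and 0.38 for VIM among the higher, and -2.53 for KRT8 and -1.34 for KRT18 among the lower. With vehicle they were 1.57 for PAX8 and for WT1, 0.51 for VIM and 0.50 for KRT7 among the higher, and -1.87 for KRT8, -1.39 for EPCAM and -1.02 for KRT18 among the lower. Of 10 blood and vessel markers, 8 were too low to test. CD3E, HBB and CLDN5 had no count, while the vessel gene CDH5 was called lower in knockout cells (log2 fold change -1.69 with LY500307 and -1.74 with vehicle) and so was the macrophage gene CD68 (-0.71 and -0.67). The part of these marker differences in the results on WNT genes was not tested. In bulk RNA, fewer cells of a type and less RNA per cell cannot be told apart.

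Of the 44 genes, 35 passed the filter on low counts. WNT6, WNT9A and SFRP2 had no count in any library, and WNT2, WNT2B, ROR2, WIF1, RNF43 and NKD1 were too low to test. One edgeR quasi-likelihood model was fitted over 13498 genes, and a gene was called when its Benjamini-Hochberg adjusted p was under 0.05. In knockout against control cells with vehicle, 5 WNT genes were called higher and 19 lower, and 11 were not called. That is 68.6% of those tested, near the 64% called among all genes tested (30.7% higher and 33.3% lower), so the share called is not a result about these genes. Calls at least 2-fold lower were made for 14 WNT genes and calls at least 2-fold higher for 2, against 7.93% and 5.95% of all genes. Because the 44 genes were chosen with earlier results known, this contrast and that with LY500307 below are not independent tests. The median log2 fold change of the WNT genes was -0.32, and that of all genes was -0.01. WNT3, WNT5A, WNT7B, ROR1 and TCF7L1 passed the filter only through the control libraries and so had to be lower. With vehicle LRP5 reached the filter's level in control libraries alone, but it also did so in knockout libraries with LY500307, so its direction was not fixed. Without these 6, the other 29 tested held 5 that were higher and 13 lower, with 8 at least 2-fold lower.

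With LY500307, knockout cells had 7 WNT genes called higher and 20 lower than control cells, 77.1% of those tested against 66.2% of all genes (32.6% higher and 33.6% lower). At least 2-fold lower were 16 WNT genes, against 8.61% of all genes, and at least 2-fold higher were 2, against 5.47%. The median log2 fold change was -0.24, against -0.01 over all genes. Called lower in both knockout comparisons were 18 WNT genes, and called higher in both were 3, from comparisons that share no library. WNT3, WNT5A, WNT7B, ROR1 and TCF7L1 could only be lower, and without them 13 of 30 (43.3%) were lower in both and 3 (10%) higher. Over all genes the shares were 28.5% and 26.5%. Genes whose direction was fixed by the filter were not removed from those, so the shares are not compared like with like. No WNT gene was called in opposite directions, but only 25 of all 13498 genes were, so this is not a result about the WNT genes. Of the 30 WNT genes that did not pass the filter through control libraries alone, 7 were higher and 15 lower, with 11 at least 2-fold lower.

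**Figure D1:**
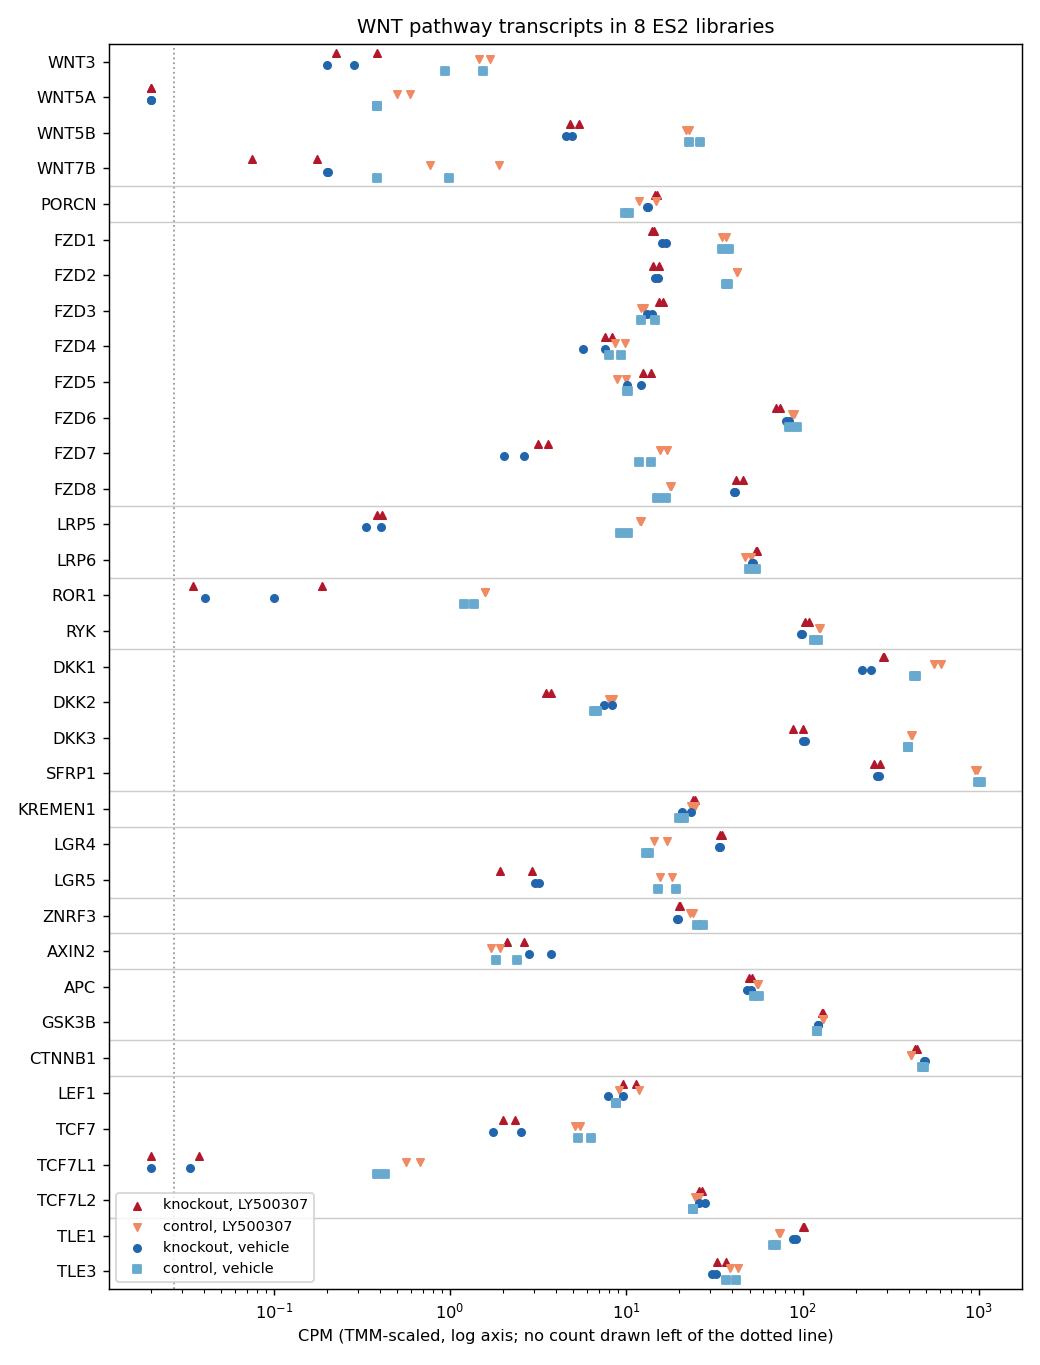
CPM (log axis) of the 35 tested WNT genes, ordered by role, with 1 point per library and symbols for the 4 groups; points left of the dotted line stand for no count. LRP5, ROR1, WNT5A and TCF7L1 separate furthest between knockout and control libraries, while LRP6, GSK3B and CTNNB1 lie close together in all 8.

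**Figure D2:**
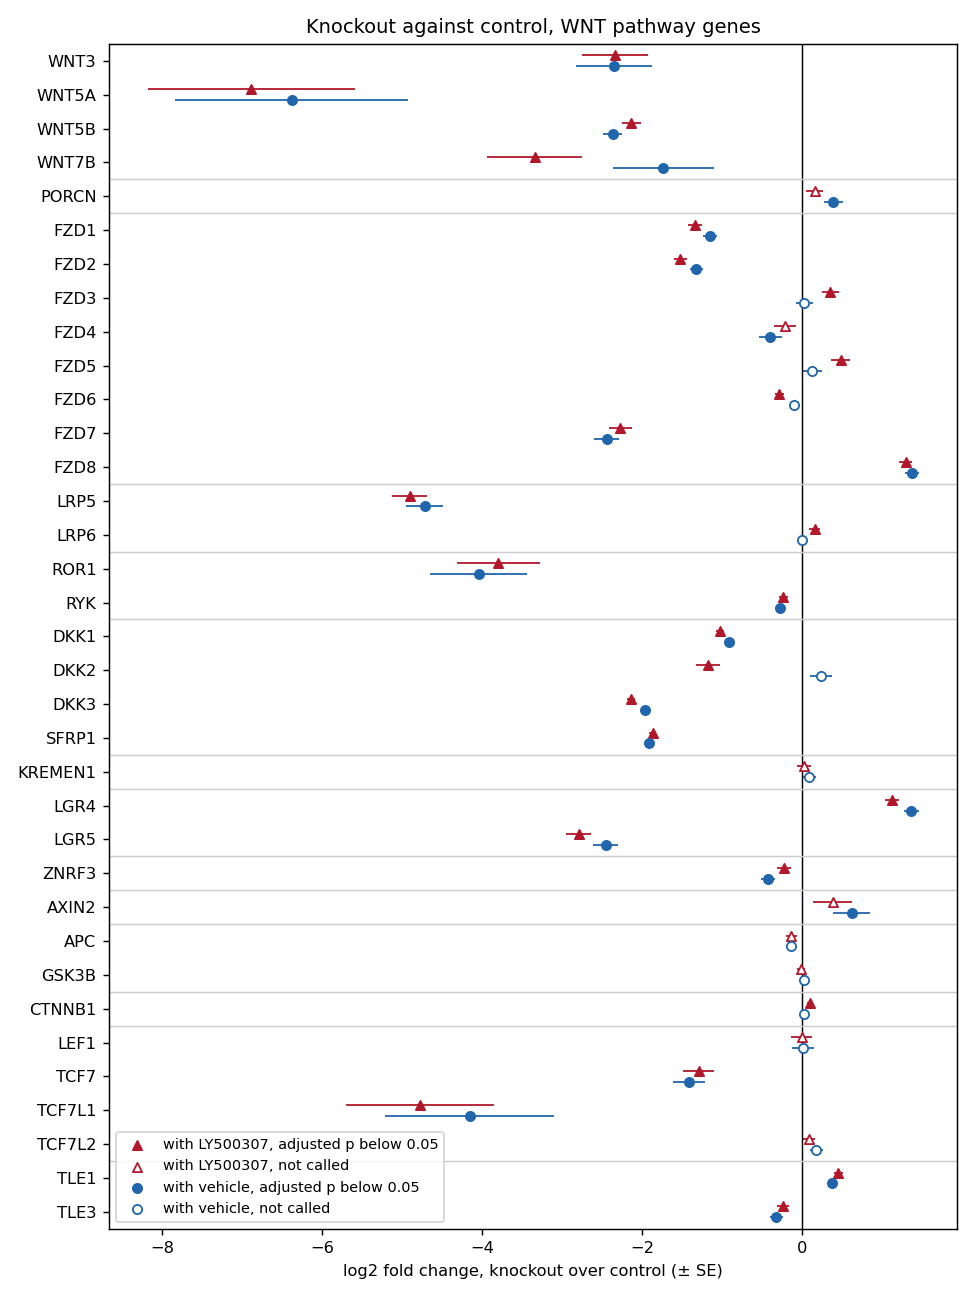
Log2 fold change, knockout over control, with its SE, for the 35 tested WNT genes with LY500307 (triangles) and with vehicle (circles); filled symbols have an adjusted p below 0.05. FZD8 and LGR4 are the 2 genes more than 1 log2 unit above 0 in both comparisons, and the fitted values of WNT5A and TCF7L1 rest on 0 or 1 count in knockout cells.

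Promoter windows are shown for 5 genes of the knockout comparisons. WNT5A had no count in knockout cells and was low in control cells, with means of 0.55 CPM with LY500307 and 0.38 CPM with vehicle. LRP5 was nearly silent in knockout cells, FZD8 and LGR4 were higher there, and DKK1 moved in every pairwise comparison. Each window runs from 250 bases before to 50 after a RefSeq transcription start on GRCh38.p14, on the gene's own strand, with CpG dinucleotides in capitals. They lie at chr3:55487257-55487556 (minus strand, the first of 2 WNT5A windows), chr11:68312341-68312640 (plus, LRP5), chr10:35642247-35642546 (minus, FZD8), chr11:27472741-27473040 (minus, LGR4) and chr10:52314031-52314330 (plus, DKK1).
WNT5A: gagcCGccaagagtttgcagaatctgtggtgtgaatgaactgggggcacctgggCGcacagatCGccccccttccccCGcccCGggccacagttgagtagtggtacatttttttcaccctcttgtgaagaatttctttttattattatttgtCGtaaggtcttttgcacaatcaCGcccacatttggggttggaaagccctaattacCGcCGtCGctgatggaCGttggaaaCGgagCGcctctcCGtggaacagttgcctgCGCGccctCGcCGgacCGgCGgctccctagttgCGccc
LRP5: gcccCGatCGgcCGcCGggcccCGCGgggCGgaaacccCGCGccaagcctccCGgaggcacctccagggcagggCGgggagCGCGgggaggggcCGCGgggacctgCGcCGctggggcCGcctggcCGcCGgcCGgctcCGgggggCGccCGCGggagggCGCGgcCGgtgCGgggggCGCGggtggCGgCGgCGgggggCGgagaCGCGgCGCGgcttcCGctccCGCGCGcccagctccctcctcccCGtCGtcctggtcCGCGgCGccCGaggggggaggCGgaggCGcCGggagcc
FZD8: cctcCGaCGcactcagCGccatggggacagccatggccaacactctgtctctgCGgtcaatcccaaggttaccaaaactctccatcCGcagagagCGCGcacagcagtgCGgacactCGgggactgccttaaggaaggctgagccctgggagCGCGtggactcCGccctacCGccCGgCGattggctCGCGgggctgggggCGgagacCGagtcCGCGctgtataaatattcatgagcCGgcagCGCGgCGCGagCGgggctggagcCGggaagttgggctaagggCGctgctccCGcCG
LGR4: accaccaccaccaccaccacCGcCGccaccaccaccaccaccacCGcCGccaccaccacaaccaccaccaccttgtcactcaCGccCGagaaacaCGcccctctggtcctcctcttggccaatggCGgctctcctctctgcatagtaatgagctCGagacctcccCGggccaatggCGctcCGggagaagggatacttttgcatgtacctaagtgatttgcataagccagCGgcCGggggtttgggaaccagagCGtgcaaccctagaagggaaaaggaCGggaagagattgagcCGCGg
DKK1: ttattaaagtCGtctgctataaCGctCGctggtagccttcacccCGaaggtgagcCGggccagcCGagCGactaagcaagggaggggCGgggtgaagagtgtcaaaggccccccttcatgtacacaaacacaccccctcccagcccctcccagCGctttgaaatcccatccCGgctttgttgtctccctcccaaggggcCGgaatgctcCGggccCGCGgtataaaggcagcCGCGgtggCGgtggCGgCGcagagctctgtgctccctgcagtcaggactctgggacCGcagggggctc

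The LRP5 window held 52 CpG dinucleotides, the FZD8 window 31, the WNT5A window 21, the DKK1 window 20 and the LGR4 window 18. Observed over expected CpG was 0.934 for LRP5 and 0.884 for WNT5A, and 0.922 for FZD8, 0.659 for DKK1 and 0.666 for LGR4, so windows of lowered and raised genes were both rich in CpG. RefSeq windows were at hand for 30 of the 44 genes, 41 windows in all, and 29 of these reached an observed over expected CpG of 0.6, a level met by 48.9% of 35114 promoter windows. Both strands were searched for the TCF/LEF core CTTTGAT, which 2.62% of all windows hold, and for the oestrogen response element (GGTCA and TGACC spaced by 3 bases), which 0.057% hold. Neither was found in any of the 41 windows, which says only that these letters are not in these stretches. The TATA box letters TATAAA, held by 11.5% of all windows, occurred in 5 of the 41, among them the FZD8 and DKK1 windows. Genes named without a window are WNT7B, FZD2, FZD3, FZD6, FZD7, LRP6, DKK2, DKK3, SFRP1, KREMEN1, LGR5, ZNRF3, AXIN2 and NKD1.

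Of the 8 ligands among the 44 genes, 4 were tested, and each was called lower in knockout cells with either treatment. WNT3, WNT5A and WNT7B passed the filter through control libraries alone, so their direction was fixed by it, while WNT5B passed it in both populations. It had 4.80 and 5.38 CPM in knockout libraries and 22.8 and 21.9 CPM in control libraries with LY500307. With vehicle, WNT5B had 4.94 and 4.55 CPM in knockout libraries and 22.8 and 26.02 CPM in control libraries. Knockout and control libraries did not overlap, and the log2 fold changes were -2.13 ± 0.115 with LY500307 (SE, n = 2 per group, edgeR adjusted p = 8.03e-18) and -2.37 ± 0.117 with vehicle (edgeR adjusted p = 7.92e-19). WNT5A, a ligand known for signalling without beta-catenin, had no count in the 4 knockout libraries. It had 31 counts in control libraries with LY500307 and 18 with vehicle. Against a floor of 3 counts over the group, WNT5A was at least 10.1-fold lower in knockout cells with LY500307 (edgeR adjusted p = 2.34e-05) and at least 6.98-fold lower with vehicle (edgeR adjusted p = 0.000297).

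WNT3, a ligand of the canonical branch, had 0.225 and 0.384 CPM in knockout libraries and 1.47 and 1.68 CPM in control libraries with LY500307. With vehicle it had 0.283 and 0.201 CPM in knockout libraries and 0.938 and 1.54 CPM in control libraries. The groups did not overlap, and the log2 fold changes of WNT3 were -2.34 with LY500307 (edgeR adjusted p = 8.55e-06) and -2.35 with vehicle (5.12e-05). WNT7B had 0.0750 and 0.175 CPM in knockout libraries and 0.769 and 1.89 CPM in control libraries with LY500307. With vehicle, WNT7B had 0.202 and 0.201 CPM in knockout libraries and 0.384 and 0.981 CPM in control libraries. The 2 control libraries differed from each other more than 2-fold in both treatments. The log2 fold changes of WNT7B were -3.34 with LY500307 (edgeR adjusted p = 7.80e-06) and -1.74 with vehicle (0.0163). The vehicle call was lost without control replicate 2 (log2 fold change -0.91, adjusted p = 0.365), without knockout replicate 1 (0.0593) and without knockout replicate 2 (0.0773). WNT2 had 2 counts in knockout and 5 in control cells with LY500307, and 4 in knockout and 1 in control cells with vehicle. WNT2B had 16, 19, 11 and 6 counts in the same groups. WNT10B, a ligand outside the 44 chosen after its values were seen, had 93 counts in knockout and 51 in control cells with LY500307, and 53 in knockout and 40 in control cells with vehicle. Its log2 fold change was 0.89 with LY500307 (edgeR adjusted p = 0.0208) and 0.19 with vehicle (0.691). The LY500307 call of WNT10B was lost without control replicate 1 (0.0957) or 2 (0.0662) or knockout replicate 2 (0.330).

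PORCN, the acyltransferase that attaches the lipid WNT proteins need for secretion, had 14.9 and 14.6 CPM in knockout libraries and 11.8 and 14.7 CPM in control libraries with LY500307. With vehicle it had 13.2 and 13.2 CPM in knockout libraries and 10.3 and 9.85 CPM in control libraries. Knockout and control libraries overlapped with LY500307 and were apart with vehicle. The log2 fold change of PORCN in knockout cells was 0.16 with LY500307 (edgeR adjusted p = 0.203) and 0.39 with vehicle, where it was called higher (0.00386). The difference between these was -0.23 and was not called (edgeR interaction, adjusted p = 0.539).

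Among the frizzled receptors, FZD1, FZD2 and FZD7 fell and FZD8 rose in knockout cells with either treatment. FZD7, a receptor that can serve the canonical branch, had 3.15 and 3.596 CPM in knockout libraries and 17.02 and 15.6 CPM in control libraries with LY500307. With vehicle it had 2.02 and 2.64 CPM in knockout libraries and 13.8 and 11.9 CPM in control libraries. No knockout library reached a control library, and its log2 fold changes were -2.27 ± 0.139 with LY500307 (SE, edgeR adjusted p = 3.28e-16) and -2.44 ± 0.156 with vehicle (9.82e-16). FZD2 had 14.2 and 15.4 CPM in knockout libraries and 42.7 and 42.3 CPM in control libraries with LY500307, and 14.6 and 15.2 CPM in knockout libraries and 37.5 and 36.98 CPM in control libraries with vehicle. FZD1 had 14.4 and 13.9 CPM in knockout libraries and 35.1 and 36.6 CPM in control libraries with LY500307, and 15.99 and 16.9 CPM in knockout libraries and 34.7 and 38.2 CPM in control libraries with vehicle. For both receptors every knockout library lay below every control library. The log2 fold changes of FZD2 were -1.52 and -1.32 with LY500307 and vehicle, and those of FZD1 were -1.34 and -1.15, with edgeR adjusted p of at most 6.41e-14.

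FZD8 had 41.7 and 45.7 CPM in knockout libraries and 17.6 and 18.0 CPM in control libraries with LY500307. With vehicle, FZD8 had 40.6 and 41.1 CPM in knockout libraries and 14.9 and 16.7 CPM in control libraries. It was higher in every knockout library, by 1.29 ± 0.0816 on the log2 scale with LY500307 (SE, edgeR adjusted p = 6.91e-16) and by 1.37 ± 0.0856 with vehicle (5.45e-16). Tested genes on 10p, where FZD8 lies, had medians of 0.34 with LY500307 and 0.32 with vehicle. Over all recalculations, which include subtraction of arm medians, the lowest log2 fold changes of FZD8 were 0.957 with LY500307 and 1.05 with vehicle. FZD6, the frizzled with the most reads, had 70.6 and 74.9 CPM in knockout libraries and 89.9 and 87.4 CPM in control libraries with LY500307, and 84.3 and 81.0 CPM in knockout libraries and 92.8 and 84.0 CPM in control libraries with vehicle. Its groups did not overlap with LY500307 (log2 fold change -0.28, edgeR adjusted p = 9.16e-05) and did with vehicle (-0.10, 0.152). FZD6 lies on 8q, whose tested genes had a median log2 fold change of -0.30 in the comparison with LY500307, and after that median was subtracted FZD6 stood at 0.02 (adjusted p = 0.803).

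The log2 fold changes of FZD3, FZD4 and FZD5 lay within 0.5 of 0 in both comparisons. FZD4 was called lower with vehicle (log2 fold change -0.40, edgeR adjusted p = 0.0174), a call lost without control replicate 1 (adjusted p = 0.183) or knockout replicate 2 (0.344), and its exons share 1399 bases with PRSS23 on the other strand. FZD3 and FZD5 were called higher with LY500307, by 0.35 (edgeR adjusted p = 0.00388) and 0.48 (0.000575), and had log2 fold changes of 0.03 and 0.12 with vehicle. Tested genes on 2q, where FZD5 lies, had a median of 0.31 with LY500307, and FZD5 stood at 0.17 after its subtraction (adjusted p = 0.223).

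Per length of merged exons, FZD6 led the frizzled transcripts in both cell populations, and the receptors behind it changed order. With vehicle, FZD6 was at 20.3 ± 0.576 CPM per kilobase of exon (RPKM) in knockout cells and 21.8 ± 1.53 RPKM in control cells (SD, n = 2 each). FZD8 came next in knockout cells, at 10.1 ± 0.0944 RPKM, and was at 3.90 ± 0.322 RPKM in control cells. FZD2 was at 3.94 ± 0.100 RPKM in knockout cells and came next after FZD6 in control cells, at 9.86 ± 0.106 RPKM. FZD8 made up 24.8% of the summed frizzled level in knockout cells with vehicle and 8.28% in control cells with vehicle. The summed level of the 8 frizzleds was between 38.1 and 41.1 RPKM in the 4 knockout libraries and between 46.1 and 49.9 RPKM in the 4 control libraries. With the length of the longest transcript in place of merged exons, the FZD8 share with vehicle was 23.7% in knockout and 7.95% in control cells.

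**Figure D3:**
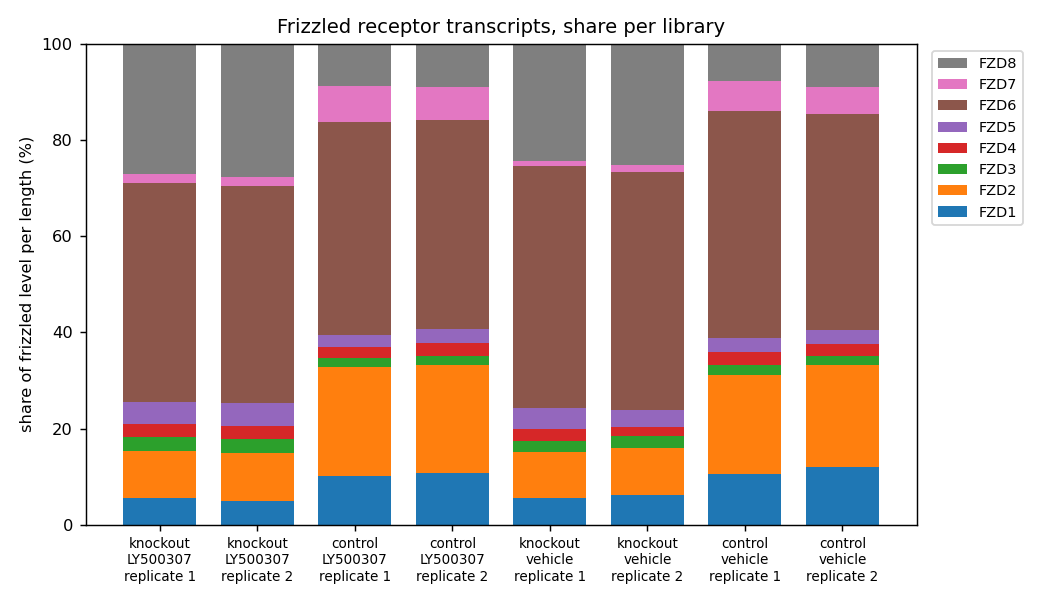
Share (%) of each of 8 frizzled receptors in the summed frizzled level per exon length, 1 bar per library. FZD8 takes between 24.3% and 27.6% in the 4 knockout libraries and between 7.61% and 8.99% in the 4 control libraries, and FZD2 between 9.40% and 9.96% against 20.6% to 22.7%.

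Of the 2 LRP co-receptors of canonical signalling, LRP5 was nearly silent in knockout cells while LRP6 stayed near its control level. LRP5 had 0.412 and 0.384 CPM in knockout libraries and 11.98 and 12.1 CPM in control libraries with LY500307. With vehicle, LRP5 had 0.405 and 0.334 CPM in knockout libraries and 10.3 and 9.26 CPM in control libraries. The knockout groups held 22 and 20 counts in all with LY500307 and with vehicle, and the control groups 683 and 458. The gap was 30.0-fold with LY500307 (log2 fold change -4.91 ± 0.216 SE, edgeR adjusted p = 2.42e-20) and 26.3-fold with vehicle (-4.72 ± 0.231, 5.38e-19). On GRCh37 the LRP5 gene spans chr11:68080059-68216743, and the median log2 fold change of tested genes on 11q was -0.03 with LY500307 and -0.04 with vehicle. LRP6 had log2 fold changes of 0.16 with LY500307 (edgeR adjusted p = 0.0374) and 0.00 with vehicle, and the LY500307 call was lost without control replicate 2 (0.270), knockout replicate 1 (0.0851) or knockout replicate 2 (0.137). Per length with vehicle, LRP6 was at 5.01 ± 0.0849 RPKM in knockout cells and 5.01 ± 0.320 RPKM in control cells, and LRP5 at 0.0598 ± 0.00805 RPKM in knockout cells and 1.58 ± 0.116 RPKM in control cells (SD, n = 2 each).

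Of the receptors best known outside the canonical branch, ROR1 and RYK were tested and both were called lower in knockout cells. ROR1, a receptor for WNT5A, passed the filter through control libraries alone. It had 0.187 and 0.0349 CPM in knockout libraries and 1.57 and 1.57 CPM in control libraries with LY500307. With vehicle it had 0.0405 and 0.100 CPM in knockout libraries and 1.36 and 1.19 CPM in control libraries. No group overlapped its control, and ROR1 had log2 fold changes of -3.80 ± 0.520 with LY500307 (SE, edgeR adjusted p = 8.34e-08) and -4.04 ± 0.6002 with vehicle (4.12e-07), with 6 and 4 counts in the knockout groups. RYK, an abundant WNT receptor related to kinases, was lower by a small margin, with log2 fold changes of -0.24 with LY500307 (edgeR adjusted p = 0.000198) and -0.28 with vehicle (2.44e-05). Tested genes on 3q, where RYK lies, had medians of -0.14 and -0.19, and RYK was not called once these were subtracted (adjusted p = 0.115 and 0.167). ROR2 had 1 count in all.

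Per length with vehicle, SFRP1 was at 56.7 ± 1.06 RPKM in knockout cells and 213.7 ± 5.09 RPKM in control cells, and DKK1 at 104.2 ± 8.51 RPKM in knockout cells and 196.3 ± 3.35 RPKM in control cells (SD, n = 2 each). These were the highest levels among the 44 genes in either population by merged exon length, whereas by the longest transcript CTNNB1, at 100.4 RPKM, stood above SFRP1, at 60.1 RPKM, in knockout cells. SFRP1, DKK1 and DKK3 fell in knockout cells. SFRP1, which binds WNT proteins, had 252.7 and 276.8 CPM in knockout libraries and 976.0 and 953.3 CPM in control libraries with LY500307. With vehicle, SFRP1 had 271.9 and 264.9 CPM in knockout libraries and 1028 and 994.3 CPM in control libraries. It was lower in every knockout library, by a log2 fold change of -1.87 ± 0.0443 with LY500307 (SE, edgeR adjusted p = 2.65e-28) and -1.91 ± 0.0444 with vehicle (1.30e-28). DKK3, a divergent member of the DKK family, had 88.8 and 100.2 CPM in knockout libraries and 412.6 and 418.6 CPM in control libraries with LY500307, and 100.3 and 102.9 CPM in knockout libraries and 395.8 and 396.4 CPM in control libraries with vehicle. Its log2 fold changes were -2.14 with LY500307 (edgeR adjusted p = 2.47e-28) and -1.96 with vehicle (2.71e-27). DKK3 shares 5681 exon bases with USP47 on the other strand, and no source used here says whether counting used strand. USP47 itself had log2 fold changes of 0.16 with LY500307 (edgeR adjusted p = 0.00560) and 0.01 with vehicle.

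DKK1, which blocks LRP5 and LRP6 and is a known target of beta-catenin, was called in both knockout comparisons and in both comparisons of LY500307 with vehicle. It had 286.1 and 288.2 CPM in knockout libraries and 610.008 and 559.3 CPM in control libraries with LY500307. With vehicle, DKK1 had 244.9 and 218.2 CPM in knockout libraries and 441.2 and 430.7 CPM in control libraries. The 4 groups did not overlap and stood in the order control with LY500307, control with vehicle, knockout with LY500307 and knockout with vehicle, high to low. Knockout against control, the log2 fold changes of DKK1 were -1.03 ± 0.0486 with LY500307 and -0.91 ± 0.0492 with vehicle (SE, edgeR adjusted p = 1.98e-19 and 8.54e-18). With LY500307 against vehicle it rose by 0.31 ± 0.0493 on the log2 scale in knockout cells (edgeR adjusted p = 1.85e-05) and by 0.42 ± 0.0480 in control cells (5.58e-08). The response in knockout cells minus that in control cells was -0.11 (edgeR adjusted p = 0.486), and DKK1 stayed called in both populations with any 1 library left out.

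DKK2, which binds the same co-receptors, was the 1 WNT gene whose response to LY500307 differed between the 2 cell populations. It had 3.49 and 3.74 CPM in knockout libraries and 7.93 and 8.42 CPM in control libraries with LY500307. With vehicle, DKK2 had 8.34 and 7.46 CPM in knockout libraries and 6.82 and 6.53 CPM in control libraries. Knockout cells with LY500307 were the low group, and both of their libraries lay below the other 6. In knockout cells DKK2 fell by 1.12 ± 0.149 with LY500307 (SE, edgeR adjusted p = 1.01e-06), and in control cells its log2 fold change was 0.29 ± 0.137 (0.114). The difference of these responses was -1.42 ± 0.202 (edgeR interaction, adjusted p = 4.63e-05). With a library left out in turn the interaction lay between -1.497 and -1.338, with adjusted p of at most 0.000768. Knockout against control, DKK2 had log2 fold changes of -1.18 with LY500307 (edgeR adjusted p = 1.34e-08) and 0.24 with vehicle (0.130). WIF1, another secreted WNT binder, had 0 counts in knockout cells, and 1 in control cells with each treatment. KREMEN1, a cell surface partner of DKK proteins, was at 23.9 and 24.6 CPM in knockout and 24.5 and 23.2 CPM in control libraries with LY500307 and was not called in any comparison.

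**Figure D4:**
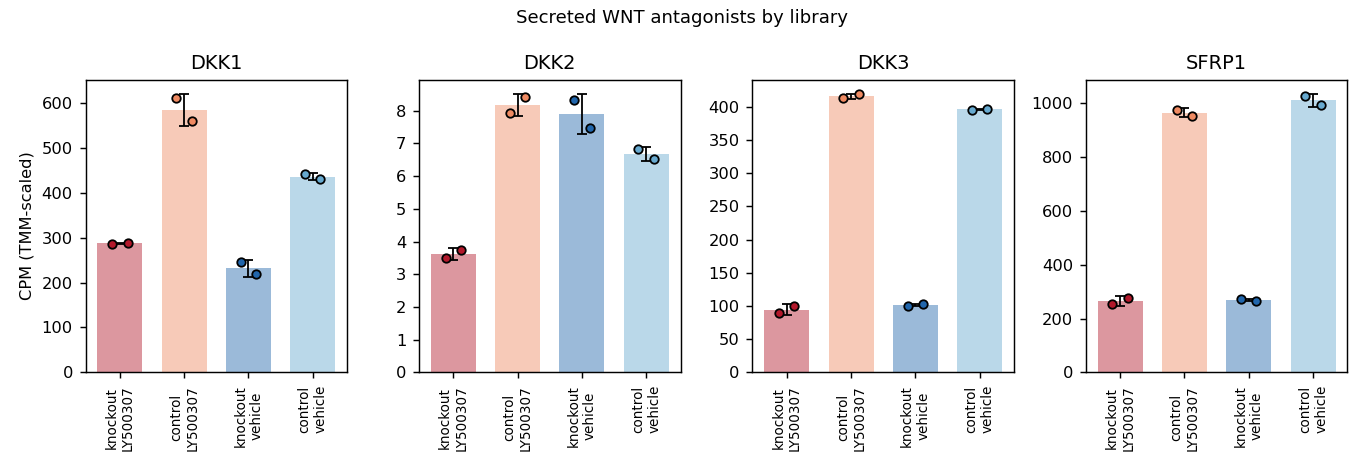
CPM of DKK1, DKK2, DKK3 and SFRP1 by group, with bars for the mean of 2 libraries, error bars for the SD and points for libraries. DKK1, DKK3 and SFRP1 are lower in both knockout groups than in both control groups, and DKK2 is lowest in knockout cells with LY500307, at 3.49 and 3.74 CPM.

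The R-spondin receptors moved in opposite directions. LGR5 had 1.91 and 2.90 CPM in knockout libraries and 18.1 and 15.4 CPM in control libraries with LY500307, and 3.04 and 3.18 CPM in knockout libraries and 15.1 and 19.1 CPM in control libraries with vehicle. LGR4 had 34.9 and 33.9 CPM in knockout libraries and 17.1 and 14.4 CPM in control libraries with LY500307, and 33.7 and 34.1 CPM in knockout libraries and 12.9 and 13.5 CPM in control libraries with vehicle. Neither gene overlapped between knockout and control libraries. The log2 fold changes of LGR5 were -2.79 ± 0.159 with LY500307 (SE, edgeR adjusted p = 3.76e-17) and -2.45 ± 0.154 with vehicle (6.45e-16). On the same scale LGR4 rose by 1.13 ± 0.0877 with LY500307 (SE, edgeR adjusted p = 1.93e-13) and by 1.37 ± 0.0925 with vehicle (4.97e-15). Per length with vehicle, LGR4 was at 5.34 ± 0.0474 RPKM in knockout cells and 2.07 ± 0.0676 RPKM in control cells, and LGR5 at 0.595 ± 0.0191 RPKM in knockout cells and 3.27 ± 0.539 RPKM in control cells (SD, n = 2 each). LGR5 was thus above LGR4 in control cells and below it in knockout cells. RSPO2, an R-spondin ligand chosen after its values were seen, had 14 counts in knockout and 127 in control cells with LY500307, and 3 in knockout and 68 in control cells with vehicle. Control cells were 8.71-fold above knockout cells with LY500307 (edgeR adjusted p = 1.03e-08), and with vehicle the ratio of the counts was 26.4, with a 95% exact counting interval of 8.65 to 131. RSPO2 passed the filter through control libraries alone, so its direction was fixed by it. The R-spondin RSPO3, too low to test, had 12 counts in knockout and 1 in control cells with LY500307, and 7 and 0 with vehicle.

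ZNRF3, the ligase that removes frizzled proteins from the membrane, was lower in knockout cells, with log2 fold changes of -0.23 with LY500307 (edgeR adjusted p = 0.0193) and -0.43 with vehicle (5.51e-05). The LY500307 call was lost without control replicate 1 (adjusted p = 0.104) or knockout replicate 2 (0.0526). Its relative RNF43 had 1 count in all. AXIN2, a feedback inhibitor that is widely used as a readout of beta-catenin activity, was at 2.10 and 2.62 CPM in knockout libraries and 1.92 and 1.71 CPM in control libraries with LY500307. With vehicle it was at 3.72 and 2.81 CPM in knockout libraries and 1.83 and 2.39 CPM in control libraries. AXIN2 was not called in knockout against control cells with LY500307 (log2 fold change 0.38, edgeR adjusted p = 0.168) and was called higher with vehicle (0.62, 0.0207). The vehicle call was lost without control replicate 1 (adjusted p = 0.188) or knockout replicate 1 (0.223). The other feedback inhibitor, NKD1, had 16 counts in knockout and 11 in control cells with LY500307, and 13 in knockout and 2 in control cells with vehicle.

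APC and GSK3B, parts of the destruction complex, were not called in any of the 5 comparisons, and their log2 fold changes between knockout and control cells lay between -0.14 and 0.02. AXIN1 and AMER1 (listed as FAM123B), which belong to the same complex and lie outside the 44 genes, were called lower in knockout cells. AXIN1 had log2 fold changes of -0.40 with LY500307 (edgeR adjusted p = 1.14e-05) and -0.73 with vehicle (2.07e-10). Tested genes on 16p, where AXIN1 lies, had medians of -0.65 and -0.66, and after their subtraction AXIN1 stood at 0.26 (0.00262) and -0.07 (0.456). FAM123B had log2 fold changes of -0.62 with LY500307 (edgeR adjusted p = 8.02e-07) and -1.20 with vehicle (3.60e-13). CTNNB1, which encodes beta-catenin, had 436.98 and 444.7 CPM in knockout libraries and 414.3 and 410.2 CPM in control libraries with LY500307. With vehicle, CTNNB1 had 492.9 and 488.6 CPM in knockout libraries and 478.0 and 486.6 CPM in control libraries. The log2 fold change of CTNNB1 between knockout and control cells was 0.10 with LY500307 (edgeR adjusted p = 0.0358) and 0.03 with vehicle. The LY500307 call was lost without control vehicle replicate 1 (adjusted p = 0.0503), control LY500307 replicate 1 (0.0945) or 2 (0.143), or knockout LY500307 replicate 1 (0.0693) or 2 (0.153). Tested genes on 3p, where CTNNB1 lies, had a median of 0.33, and after its subtraction CTNNB1 stood at -0.23 (adjusted p = 1.08e-05).

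Of the TCF/LEF factors, TCF7 and TCF7L1 fell in knockout cells, while LEF1 and TCF7L2 were not called in any comparison. TCF7 had 1.99 and 2.34 CPM in knockout libraries and 5.14 and 5.49 CPM in control libraries with LY500307, and 1.74 and 2.54 CPM in knockout libraries and 5.28 and 6.27 CPM in control libraries with vehicle. The groups did not overlap, and TCF7 had log2 fold changes of -1.29 with LY500307 (edgeR adjusted p = 5.38e-07) and -1.41 with vehicle (1.44e-07). TCF7L1, which mostly represses WNT targets, had 1 count in knockout and 35 in control cells with LY500307, and 1 in knockout and 19 in control cells with vehicle. The ratio of control to knockout was 34.2 with LY500307 (95% exact counting interval 5.74 to 1388) and 22.1 with vehicle (3.52 to 919). Per length with vehicle, TCF7L2 was at 4.004 ± 0.222 RPKM in knockout and 3.54 ± 0.01995 RPKM in control cells, above LEF1 at 1.63 ± 0.229 and 1.63 ± 0.00468 RPKM in the same groups (SD, n = 2 each). TLE corepressors bind TCF/LEF factors and oppose beta-catenin. TLE1 had 101.4 and 101.0 CPM in knockout libraries and 73.8 and 74.5 CPM in control libraries with LY500307, and 91.8 and 88.0 CPM in knockout libraries and 67.5 and 71.0 CPM in control libraries with vehicle. TLE1 was higher in every knockout library, by 0.45 with LY500307 (edgeR adjusted p = 1.49e-08) and 0.38 with vehicle (8.07e-07). TLE3 was called lower, by log2 fold changes of -0.24 with LY500307 (edgeR adjusted p = 0.00903) and -0.32 with vehicle (0.000940). The calls of TLE3 were lost without control (0.174) or knockout (0.143) replicate 2 with LY500307, without control replicate 2 with vehicle (0.0512), and in both after the medians of 15q, -0.25 and -0.26, were subtracted (0.924 and 0.533).

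LY500307 against vehicle moved fewer WNT genes than the knockout did. In knockout cells 3 were called higher and 3 lower, 17.1% of the 35 tested against 20.4% of all genes (9.16% higher and 11.3% lower). In control cells 3 were called higher and 1 lower, 11.4% against 26.3% of all genes (12.3% higher and 14% lower). The median log2 fold change was 0.07 in knockout cells, against 0.01 over all genes, and 0.10 in control cells, against 0.01. At an unadjusted p under 0.05 there were 10 of the 35 WNT genes in knockout cells, against 4440 of all 13498 genes tested. In control cells there were 11 of the 35, against 5042 of all genes. These counts are not a result about the WNT genes. Scaling by library totals instead of TMM gave 6 higher and 1 lower in knockout cells and 12 higher and 1 lower in control cells. Over all genes it gave 2287 higher and 954 lower in knockout cells, in place of 1237 and 1522, and 2831 higher and 1011 lower in control cells, in place of 1665 and 1885. The counts in these comparisons therefore depend on the scaling.

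DKK1 and FZD7 were called higher, and CTNNB1 lower, in both cell populations. On the log2 scale FZD7 rose by 0.52 in knockout cells (edgeR adjusted p = 0.0477) and by 0.35 in control cells (0.0266), and each call was lost without any of several libraries. The FZD7 call in knockout cells was lost without knockout vehicle replicate 1 (adjusted p = 0.314), control LY500307 replicate 1 (0.0565) or 2 (0.0544), or knockout LY500307 replicate 1 (0.0637) or 2 (0.236). That in control cells was lost without control vehicle replicate 2 (0.263) or control LY500307 replicate 1 (0.198) or 2 (0.0514). CTNNB1 had log2 fold changes of -0.15 in knockout cells (edgeR adjusted p = 0.00550) and -0.23 in control cells (8.46e-05), and with library totals its value in knockout cells was -0.10 (0.0809).

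In knockout cells, besides DKK2, the log2 fold change of FZD6 with LY500307 was -0.18 (edgeR adjusted p = 0.0280) and that of TLE1 was 0.17 (0.0254). The FZD6 call was lost without knockout vehicle replicate 1 (0.176) or 2 (0.0662) or knockout LY500307 replicate 1 (0.171), and with library totals (0.139). The TLE1 call was lost without knockout vehicle replicate 1 (0.0541) or 2 (0.227) or knockout LY500307 replicate 1 (0.117) or 2 (0.0837). PORCN had log2 fold changes with LY500307 of 0.16 in knockout cells (edgeR adjusted p = 0.307) and 0.40 in control cells (0.0104), and the call was lost without control vehicle replicate 2 (0.0818) or control LY500307 replicate 2 (0.263). No WNT ligand, LRP co-receptor, ROR or RYK receptor, R-spondin receptor, destruction complex gene or TCF/LEF factor was called with LY500307 in either population. In knockout cells WNT3, WNT5A, WNT7B, ROR1 and TCF7L1 were below the filter's level with either treatment, so a response there could hardly be called.

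In the interaction, which tests the response in knockout cells minus that in control cells, DKK2 was the 1 WNT gene called, 2.86% of the 35 tested against 1.62% of all genes (0.526% higher and 1.09% lower). At an unadjusted p under 0.05 there were 5 of the 35, against 1950 of all 13498 genes tested, which is about the same share. PORCN, FZD6, FZD7, TLE1, DKK1 and CTNNB1 were not called in the interaction, so a call in 1 population alone does not show that these responses differed.

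**Figure D5:**
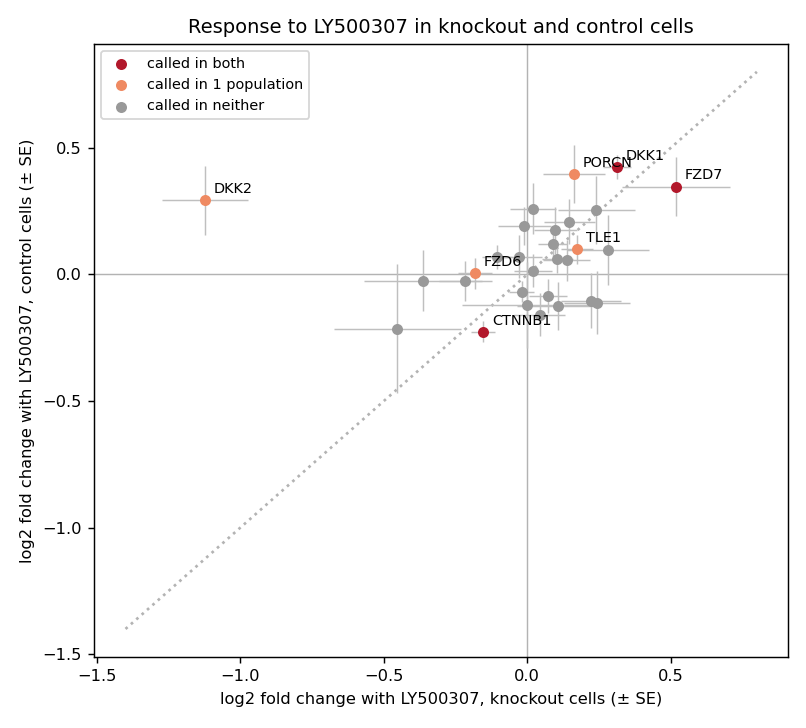
Log2 fold change with LY500307 against vehicle in knockout cells (x axis) and control cells (y axis), with SE bars, for the 29 WNT genes whose mean reached 1 CPM in every group; the dotted line marks equal responses. DKK2 lies far left of that line, at -1.12 in knockout cells and 0.29 in control cells, and DKK1 lies near it.

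Other components of the pathway were taken from a list of 74 genes, of which 42 were tested. In knockout against control cells 9 were called higher and 20 lower with LY500307, and the counts were again 9 and 20 with vehicle, 69% of those tested in each. Over all genes 66.2% were called with LY500307 and 64% with vehicle, so these shares are near the background. The median log2 fold change of the components was -0.22 in both, against -0.01 over all genes. PTK7, a co-receptor of the planar polarity branch, had 1.42 and 1.47 CPM in knockout libraries and 17.8 and 17.01 CPM in control libraries with LY500307, and 1.54 and 1.87 CPM in knockout libraries and 15.6 and 15.1 CPM in control libraries with vehicle. PRICKLE1, of the same branch, had 33.2 and 34.3 CPM in knockout libraries and 6.78 and 8.49 CPM in control libraries with LY500307, and 39.7 and 41.9 CPM in knockout libraries and 8.91 and 9.43 CPM in control libraries with vehicle. Neither overlapped between knockout and control. With vehicle PTK7 fell by 3.15 and PRICKLE1 rose by 2.15 on the log2 scale (edgeR adjusted p = 3.90e-19 and 7.50e-20). Also higher were PRICKLE2 (1.04), the formin DAAM1 (1.90), which acts below frizzled on the cytoskeleton, and the tankyrase TNKS2 (0.43), which marks AXIN for degradation. Also lower were FBXW11 (-0.70) and CUL1 (-0.57), parts of the ubiquitin ligase for beta-catenin, and FAM123B (-1.20), a scaffold of the destruction complex. BTRC, another part of that ligase, named after its values were seen, was called higher with vehicle (0.28).

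With LY500307 against vehicle, 5 of these components were called higher and 3 lower in knockout cells, and 7 higher and 3 lower in control cells. The shares called, 19% and 23.8%, are about those of all genes, 20.4% and 26.3%. CELSR3, an atypical cadherin of planar polarity, rose by 0.51 in knockout cells (edgeR adjusted p = 0.000254) and by 0.53 in control cells (0.000340). In knockout cells the corepressor AES fell by 0.21 and AXIN1 rose by 0.31, and in control cells DAAM1 rose by 0.90 and FAM123B fell by 0.43 (edgeR adjusted p of at most 0.00281). FAM123B was the 1 component called in the interaction, 2.38% of the 42 tested against 1.62% of all genes. Its difference was 0.59 ± 0.136 (SE, edgeR adjusted p = 0.0152), and the call was lost without either control LY500307 replicate (0.0552 and 0.0695), control vehicle replicate 2 (0.0623), either knockout vehicle replicate (0.0528 and 0.0675) or knockout LY500307 replicate 1 (0.0622).

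Of 34 reported TCF/beta-catenin target genes outside the 44, 22 were tested, and these moved both ways. In knockout against control cells 8 were called higher and 12 lower with LY500307, and 7 higher and 11 lower with vehicle. That is 90.9% and 81.8% of those tested, against 66.2% and 64% of all genes. This list was chosen with earlier results of these data known, and its genes were not matched in level to all genes. The shares of targets, here and below, are therefore not compared like with like. Their median log2 fold change was -0.18 with LY500307 and -0.20 with vehicle, against -0.01 over all genes. CCND1, a cyclin of the cell cycle entry, had 691.9 and 673.8 CPM in knockout libraries and 960.3 and 952.4 CPM in control libraries with LY500307, and 713.2 and 724.1 CPM in knockout libraries and 1088 and 1090.1 CPM in control libraries with vehicle. EPHB2, an ephrin receptor, had 210.4 and 217.5 CPM in knockout libraries and 106.7 and 107.2 CPM in control libraries with LY500307, and 194.8 and 188.4 CPM in knockout libraries and 84.2 and 88.8 CPM in control libraries with vehicle. Both were apart between knockout and control libraries, in opposite directions. With vehicle CCND1 fell by 0.60 and EPHB2 rose by 1.15 (edgeR adjusted p = 1.00e-15 and 3.60e-20). The transcription factors SOX9 (0.50) and SOX4 (0.50) and the nuclear receptor PPARD (0.38) were also higher, and the survivin gene BIRC5 (-0.99), TNFRSF19 (-1.76) and the urokinase receptor PLAUR (-0.69) were also lower.

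With LY500307 against vehicle, 4 of these targets were called higher and 3 lower in knockout cells, 31.8% against 20.4% of all genes. In control cells 3 were called higher and 5 lower, 36.4% against 26.3% of all genes. VEGFA, a growth factor for vessels, rose by 0.37 on the log2 scale in knockout cells (edgeR adjusted p = 3.15e-06) and had a log2 fold change of 0.06 in control cells. JUN, an AP-1 subunit, had log2 fold changes of 0.02 in knockout cells (edgeR adjusted p = 0.782) and -0.35 in control cells, where it was called lower (1.01e-06). MYC (0.18) was called higher and SOX9 (-0.18) lower in knockout cells, with EPHB2 (0.31) higher and BIRC5 (-0.25) lower in control cells. The MYC call was lost without knockout vehicle replicate 2 (0.0872), and the SOX9 call without knockout vehicle replicate 1 (0.117). The interaction was called for JUN (0.37, edgeR adjusted p = 0.000966), with any library left out, and for VEGFA (0.31, 0.02002). That is 9.09% of the 22 targets tested, against 1.62% of all genes. The VEGFA call was lost without either control LY500307 replicate (0.0791 and 0.0782), control vehicle replicate 2 (0.107), either knockout vehicle replicate (0.0761 and 0.0690) or knockout LY500307 replicate 1 (0.0801).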

How the data were processed

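Counts of reads for each gene symbol, as whole numbers, were deposited by the authors; the submitters' processing notes name hg19 and the tools bcl2fastq, HTSeq and TopHat2 2.0.8b. Libraries were Illumina TruSeq with single-end reads, per the labels' protocols, and no source used here says whether counting used strand. Rows that name no gene were left out of totals; reads in no feature were between 10.7% and 12.8% and ambiguous reads between 0.811% and 0.861% of each file. Counts of duplicates differed by more than sampling noise (chi-square per degree of freedom 3.05 to 4.30), so each counted as 1 sample.

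A single edgeR 4.0.16 quasi-likelihood model with limma 3.58.1 (R 4.3.3; filterByExpr by group, TMM scaling, a mean per group, all 8 libraries) was fitted to 13498 genes for 5 comparisons, two-sided, with Benjamini-Hochberg adjustment over all genes tested. The biological coefficient of variation was 3.95% and 4 residual degrees of freedom were shared with a prior of 30.1. CPM are counts per 1000000 scaled by TMM; RPKM divide them by merged exon length from a GENCODE annotation on GRCh37, matched by symbol or older symbol. Arms were taken from the same annotation. Counting intervals and floors cover counting error only. The step was tested on simulated data. DESeq2 1.42.0, other scalings and filters, a replicate block, subtraction of chromosome arm medians and omission of each library were tried.

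The 44 genes and the lists were chosen with earlier results of these data known. Library values are given for members called in a knockout comparison with a log2 fold change of at least 1 in size, or called in an agonist comparison or the interaction; from the other lists, up to 4 rises and 4 falls of smallest p in knockout against control with vehicle and up to 3 genes in each agonist comparison are named.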

Additional observations from a re-analysis of the deposited data

Results flagged for a closer look

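Among the 44 WNT genes, the other components and the target genes, 4 had a response to LY500307 that differed between knockout and control cells by the edgeR interaction test. It called 218 genes in all, 1.62% of those tested. The shares called were 2.86% of the 35 tested WNT genes, 2.38% of the 42 tested components and 9.09% of the 22 tested target genes. DKK2 had a difference in log2 response of -1.42, with both knockout libraries with LY500307 below the other 6. FAM123B had a difference of 0.59, from log2 fold changes of 0.16 in knockout cells (not called) and -0.43 in control cells (called). JUN had a difference of 0.37 and VEGFA one of 0.31. DKK2 and JUN stayed called with any 1 library left out, and FAM123B and VEGFA did not.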

How the results depend on the processing

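For 100 values of WNT genes and named list genes, 1554 recalculations were made. The direction turned in 4, all after subtraction of chromosome arm medians in knockout against control cells with LY500307: FZD6 to 0.0192, TLE3 to 0.0105, CTNNB1 to -0.23 and AXIN1 to 0.26. In further recalculations the direction held but the call was lost, 6 times after subtraction of arm medians and 9 times with DESeq2. Calls lost with a library left out are given above, gene by gene. With arm medians subtracted 8 WNT genes were higher in knockout cells with vehicle, in place of 5. The cause of each change given here was not tested.

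Library totals gave, for LY500307 against vehicle in knockout cells, 6 WNT genes higher and 1 lower, 1 target lower, and 2287 genes higher and 954 lower. In control cells they gave 12 WNT genes higher, 11 other components higher and 1 lower, 7 targets higher and 3 lower, and 2831 genes higher and 1011 lower. In control cells 6 WNT genes were higher with at least 10 counts in every library and 5 with the compared groups alone. Without a filter the interaction called 248 genes lower, 1 of them another component. DESeq2 called 723 genes higher in knockout cells, 1100 genes and 1 target higher in control cells, and 47 genes but 0 other components higher in the interaction, where edgeR called 71 and 1. DESeq2 set no adjusted p for 5, 2 and 6 WNT genes in knockout cells, control cells and the interaction. In knockout against control cells DESeq2 did not call WNT7B (adjusted p = 0.0549), FZD4 (0.0872) or AXIN2 (0.0954) with vehicle. With LY500307 DESeq2 did not call LRP6 (0.0872), ZNRF3 (0.0590) or WNT10B (0.125). FZD7 was not called by DESeq2 with LY500307 against vehicle in control (0.134) or knockout cells (0.0987), nor was FAM123B in the interaction (0.0523).

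Replicate numbers are given by the labels, but same-numbered libraries did not deviate together (correlations 0.000614 to 0.0700). A replicate block gave 6 WNT genes higher with LY500307 in control cells, and in the interaction 2 other components higher and 297 genes higher and 346 lower.

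With 1 library left out in turn, LY500307 against vehicle in knockout cells called 1 to 3 WNT genes higher, 2 to 5 other components higher and 1 to 4 lower, 1 to 4 targets higher and 0 to 3 lower, and 537 to 1217 genes higher and 885 to 1519 lower. In control cells it called 2 to 5 WNT genes higher, 3 to 7 other components higher and 1 to 4 lower, 1 to 3 targets higher and 3 to 5 lower, and 941 to 1871 genes higher and 1205 to 1940 lower. The interaction called 1 to 2 WNT genes lower, 0 to 1 other components higher and 0 to 1 lower, 1 to 2 targets higher, and 24 to 79 genes higher and 71 to 183 lower. WNT genes under about 1 CPM rest on few reads, so their fold sizes are loose.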
